A study of Mus musculus with 4 samples.

Results

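Expression of 10 genes of the Kruppel-like factor family (Klf2, Klf3, Klf4, Klf6, Klf7, Klf9, Klf10, Klf11, Klf12 and Klf13) was followed in 4 libraries of mouse CD8 T cells from tumours. The genes were found by symbol among the 45773 genes of the tables, and 9 of the 10 had a mean of at least 1 TPM (a level scaled to transcript length and to the library total), as did 12570 genes in all, called measured below. In the gain experiment, PmelI CD8 T cells, whose transgenic receptor recognises the melanocyte antigen gp100, carried either the retroviral vector MigRI or Klf4. They were injected on day 7 into Rag2 KO mice, which have no T or B cells of their own, bearing tumours of the colon carcinoma line MC38 made to express gp100, and GFP+ infiltrating CD8 T cells were taken on day 15. In the loss experiment, PD1+ CD8+ cells were taken on day 14 from MC38 tumours in control (WT) mice and in mice labelled Klf4 cKO, called the cKO-labelled library below. The labels give neither the Cre driver nor the deleted part of the gene, and they give no age, number of mice or pooling. Each tumour was started from 300000 cells and each sample held 10000 to 20000 T cells. Each group was 1 library, so no difference below has a replicate check, a spread or a p-value, and every direction describes 1 library against another.

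Kruppel-like factors are transcription factors that bind GC-rich and CACCC-containing DNA through C2H2 zinc fingers at their C-terminal end. Their N-terminal parts differ and recruit either coactivators or corepressors. In T cells, Klf2 is known for quiescence and for the genes that let cells leave tissue and enter lymph nodes, such as S1pr1. Klf4, best known as a reprogramming factor, is known to restrain the proliferation of CD8 T cells.

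TPM keeps no read depth, so no counting interval can be given. Measured genes as a whole were shifted: their median difference was 0.79 log2 (Klf4-transduced minus MigRI) and 0.74 log2 (cKO-labelled library minus control). Each difference of log2(TPM + 1) is therefore given from the deposited values and on a relative scale, from which that median has been subtracted. A difference of 1 log2 (2-fold) was called. Of all measured genes, 43.7% were called higher and 10.3% lower as deposited in the gain experiment, and 21.4% and 23.6% on the relative scale. In the loss experiment these shares were 38.4% and 6.92% as deposited, and 12.4% and 16.2% on the relative scale. The labelled cell type was present in every library: all 10 T cell markers, among them Cd3e, Cd8a and Trac, were above 0 in all 4. They differed in level, however. The T cell markers summed to 24626 TPM in MigRI and 5813 TPM in the Klf4-transduced library, with 10 of 10 at least 2-fold lower in the latter. They summed to 7972 TPM in control against 18556 TPM in the cKO-labelled library, with 8 of 10 at least 2-fold higher. In bulk samples, fewer cells of a type and less RNA per cell cannot be told apart.

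Klf4 itself was listed at 8.69 TPM in MigRI, 26.05 TPM with Klf4, 7.52 TPM in control and 9.28 TPM with the cKO label. The Klf4-transduced library was the highest, and the other 3 lay close together. The ratio of TPM was 3.00 for Klf4-transduced over MigRI, and the difference was 1.48 log2 as deposited and 0.69 log2 on the relative scale. Of 12570 measured genes, 3722 had a larger difference in that comparison. Between the cKO-labelled library and control the difference was 0.27 log2 as deposited and -0.47 log2 on the relative scale, so its direction turned with the scaling. Klf4 was also set against the T cell receptor constant genes Trac, Trbc1 and Trbc2. That difference was 3.50 log2 in the gain experiment and -1.49 log2 in the loss experiment. Those reference genes themselves differed by -2.02 and 1.76 log2. Such a reference raises every gene in the gain experiment and lowers every gene in the loss experiment. For this reason the direction of Klf4 against it does not check the labels. Over the 9 alternatives of scaling, pseudocount and gene set, Klf4 was higher in the Klf4-transduced library in 9, and in the cKO-labelled library it was higher in 4 and lower in 5. The cKO label is therefore not settled by the Klf4 level, and directions drawn from that library rest on its label. On mm10, Klf4 lies on chromosome 4 from 55527143 to 55532466 on the minus strand. Its longest transcript in GENCODE is 3029 nucleotides, of which 1449 are coding, and neither the vector insert nor the deleted stretch is given in the labels.

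Klf6, a broadly expressed member induced by growth and injury signals, was the highest of the family in every library. It was listed at 157 TPM in MigRI, 616 TPM with Klf4, 65.8 TPM in control and 194 TPM with the cKO label. It made up 64.4%, 57.9%, 36.8% and 60.0% of the summed TPM of the 10 genes in the same order. At the other end, Klf12, a repressor that binds the corepressor CtBP, was listed at 0 in 3 libraries and at 0.0165 TPM in the cKO-labelled library, so no fold is given. Klf11, a repressor of the TGF-beta-inducible subgroup, was the lowest of the 9 measured members in every library, between 0.497 TPM in control and 11.5 TPM in the Klf4-transduced library. The summed TPM of the 10 genes was 243 in MigRI, 1064 in the Klf4-transduced library, 179 in control and 322 in the cKO-labelled library.

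**Figure D1:**
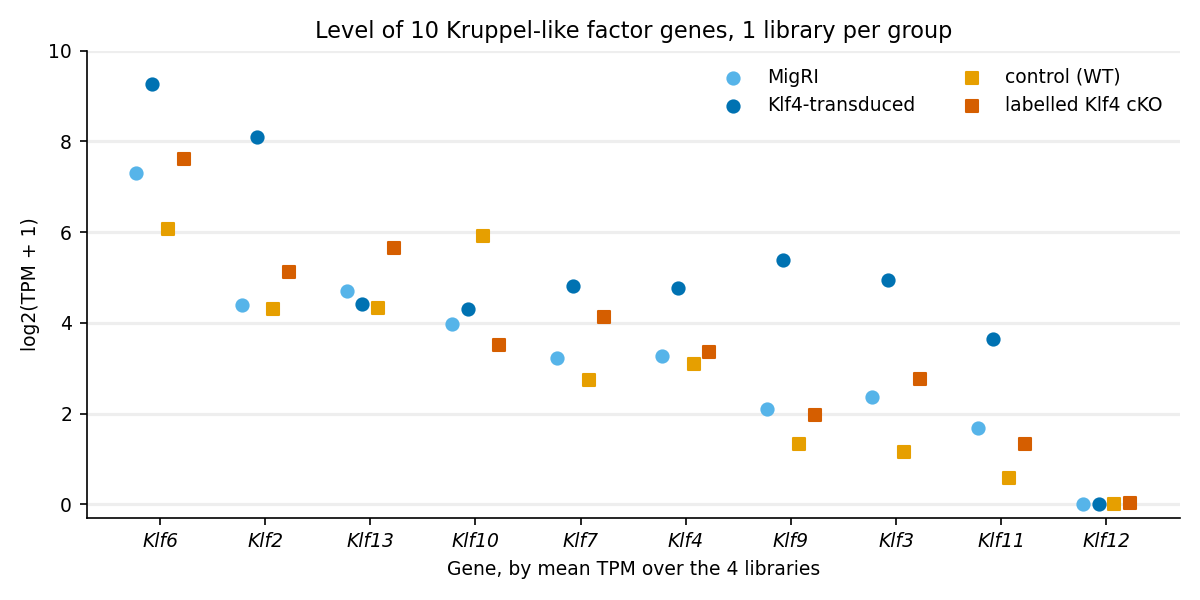
Level of each of the 10 genes as log2(TPM + 1) on the vertical axis, with 1 point per library (circles, gain experiment; squares, loss experiment) and genes ordered by mean TPM. Klf6 is highest in every library, Klf12 lies at or near 0 throughout, and Klf10 is the gene for which control (WT), at 59.1 TPM, lies above the other libraries.

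The order of the other members differed from library to library. In MigRI the order below Klf6 was Klf13, Klf2, Klf10, Klf4, Klf7, Klf3, Klf9 and Klf11, from 25.1 TPM for Klf13 to 2.21 TPM for Klf11. In the Klf4-transduced library Klf2 and Klf9 came next after Klf6, at 274 and 41.0 TPM, and Klf13 stood at rank 7, at 20.2 TPM. In control the order was Klf6, Klf10, Klf13 and Klf2, at 65.8, 59.1, 19.0 and 18.7 TPM. In the cKO-labelled library it was Klf6, Klf13, Klf2 and Klf7, at 194, 48.9, 33.6 and 16.5 TPM, with Klf10 at rank 5. With 1 library per group it cannot be said which neighbours in these orders differ beyond their spread.

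**Figure D2:**
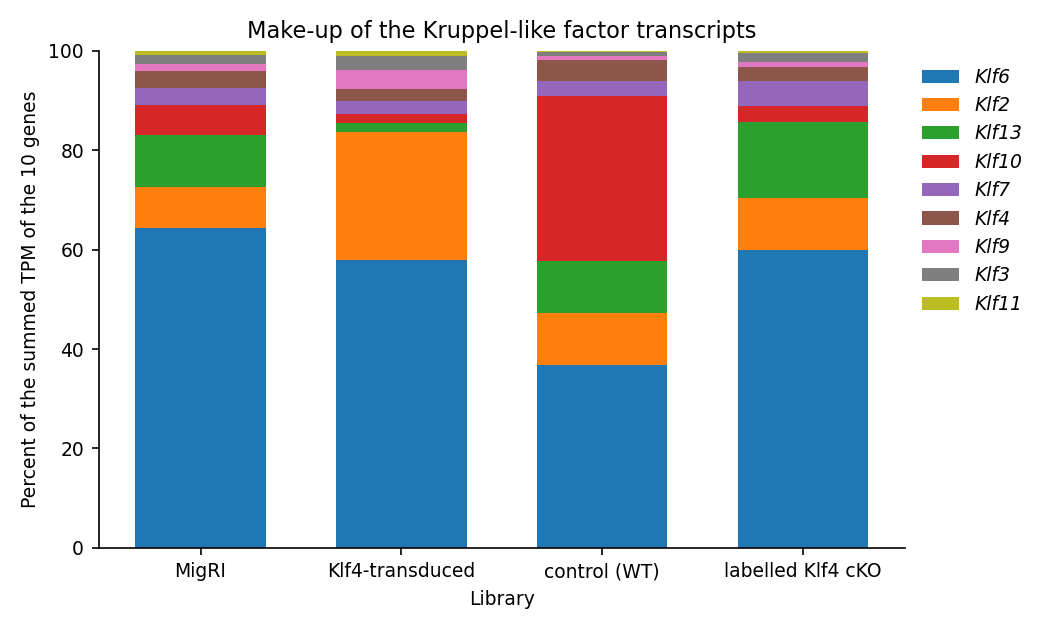
Share of each gene in the summed TPM of the 10 genes (vertical axis, percent, from 0) in each library, with Klf12 left out of the drawing because it holds at most 0.00512%. Klf2 takes 25.7% in the Klf4-transduced library against 8.28% in MigRI, and Klf10 takes 33% in control against 3.23% in the cKO-labelled library.

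The upstream sequences of Klf2, Klf4 and Klf6 are shown because these are the member that differed most in the gain experiment, the manipulated gene and the most abundant member. They are the 250 bases before the RefSeq start site on GRCm38.p6, the NCBI name of the mm10 build, 5′ to 3′ on the gene's strand. Capitals mark matches on either strand to CACCC (the core of the family's own site), GGGCGG (the GC box of Sp factors), CCAAT, or the MEF2 motif, and overlapping matches run together.
Klf2 (chr8:72318812-72319061, plus strand): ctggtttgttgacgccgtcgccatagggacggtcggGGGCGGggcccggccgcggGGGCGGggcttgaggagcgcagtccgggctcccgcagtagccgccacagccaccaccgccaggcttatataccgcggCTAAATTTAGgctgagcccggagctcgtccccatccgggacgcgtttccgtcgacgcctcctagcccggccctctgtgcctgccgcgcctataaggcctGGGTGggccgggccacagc
Klf4 (chr4:55532476-55532725, minus strand): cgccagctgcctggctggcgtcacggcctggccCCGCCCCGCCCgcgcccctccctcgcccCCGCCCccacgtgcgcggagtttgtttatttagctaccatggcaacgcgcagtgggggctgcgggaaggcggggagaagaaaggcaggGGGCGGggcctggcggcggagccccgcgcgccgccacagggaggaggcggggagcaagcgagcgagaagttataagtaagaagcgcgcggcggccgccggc
Klf6 (chr13:5861239-5861488, plus strand): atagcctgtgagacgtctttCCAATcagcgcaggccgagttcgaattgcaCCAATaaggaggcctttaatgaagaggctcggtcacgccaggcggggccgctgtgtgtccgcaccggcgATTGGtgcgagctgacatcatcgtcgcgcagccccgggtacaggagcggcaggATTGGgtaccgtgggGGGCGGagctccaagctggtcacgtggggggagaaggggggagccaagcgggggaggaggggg
The Klf2 window held 1 MEF2 match, beginning at position -118 from the start site. MEF2 factors, activated through the kinases MEK5 and ERK5, are known to induce Klf2 and Klf4. The Klf4 window held 4 GGGCGG matches and none of the other marked motifs, and the Klf6 window held 4 CCAAT matches and 1 GGGCGG match.

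The set of RefSeq promoters used here held 9 of the 10 genes, all but Klf10. GGGCGG was found in 7 of the 9 windows and in 32.7% of 32851 windows of the same length over all genes. CACCC was found in 6 of 9 and in 52.0% of all windows, CCAAT in 4 of 9 and in 33.8%, and the MEF2 motif in 1 of 9 and in 2.92%. TATAAA was found in 1 of 9, in Klf12, and in 12.4% of all windows. The CArG box of serum response factor and the cyclic AMP element TGACGTCA were found in 0 of 9, against 1.47% and 1.55% of all windows. GC content was 74.0% for Klf4, 71.2% for Klf2, 64.8% for Klf6 and 48.0% for Klf12, against a median of 52.4% over all windows. The Klf12 window, from 100149797 to 100150046 on chromosome 14, lay within the annotated gene, which runs from 99870632 to 100284679 on the minus strand. Annotated exons covered all 250 bases of the Klf3 window, 102 for Klf7, 97 for Klf11, 29 for Klf2 and 7 for Klf6. A match is a run of letters and no measured binding site.

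In the gain experiment, the question was which transcripts differ in tumour-infiltrating cells given Klf4. Klf2, Klf9, Klf3, Klf6 and Klf11 were at least 2-fold higher in the Klf4-transduced library than in MigRI on both scales, and Klf4 and Klf7 were so as deposited only. That is 7 of 9 measured members as deposited, where 43.7% of all measured genes were called higher, and 5 of 9 on the relative scale, where 21.4% were. As deposited, 0 of 9 were at least 2-fold lower, against 10.3% of all genes. On the relative scale, 1 of 9 (Klf13) was, against 23.6%. The median over the 9 members was 1.96 log2 as deposited, beside 0.79 over all measured genes.

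Klf2 was at 20.2 TPM in MigRI and 274 TPM in the Klf4-transduced library, 13.6 times the level, a difference of 3.70 log2 as deposited and 2.91 log2 on the relative scale. Only 122 of 12570 measured genes had a larger difference. Klf9, a repressor known to be induced by glucocorticoids, was at 3.30 and 41.0 TPM, differences of 3.29 and 2.49 log2, with 286 genes above it. Klf3, a repressor that works through CtBP, was at 4.16 and 29.6 TPM, differences of 2.57 and 1.78 log2. On mm10, Klf2 lies on chromosome 8 from 72319033 to 72321656 and Klf9 on chromosome 19 from 23141226 to 23168134, both on the plus strand. Klf2, Klf9 and Klf3 had the largest differences among the members, and the Klf4-transduced library was the higher one for all 3 in each of the 9 scaling and pseudocount alternatives.

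Klf6 was at 157 and 616 TPM, differences of 1.97 log2 as deposited and 1.17 log2 on the relative scale. Klf11 was at 2.21 and 11.5 TPM, with differences of 1.96 and 1.17 log2. Klf7, a member best known from neurons, was at 8.31 and 27.2 TPM, with differences of 1.60 and 0.81 log2. Exons of Klf7 share 3196 bases with Gm26649 on the opposite strand, and those of Klf3 share 404 bases with Gm20033. Strand is not marked by this kit, and reads from such pairs cannot be told apart.

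Klf10 and Klf13 were the exceptions. Klf10, a repressor induced by TGF-beta, was at 14.7 and 18.7 TPM, 0.33 log2 as deposited and -0.47 log2 on the relative scale. Klf13, an activator of Ccl5 in T lymphocytes, was at 25.1 and 20.2 TPM, -0.30 log2 as deposited and -1.10 log2 on the relative scale. The sign for both depended on the scaling: relative to the receptor constant genes Trac, Trbc1 and Trbc2, they were 2.34 and 1.71 log2.

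**Figure D3:**
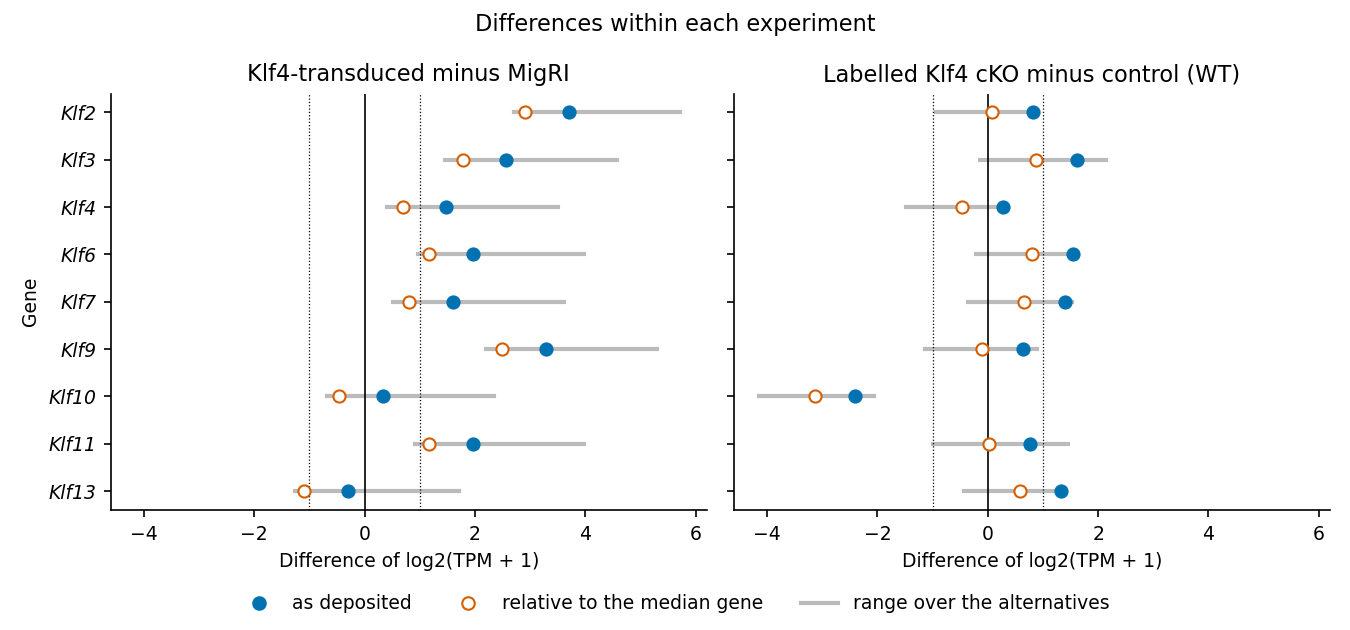
Difference of log2(TPM + 1) for the 9 measured members (horizontal axis) in the gain experiment (left) and the loss experiment (right). Filled points are as deposited, open points are on the relative scale, grey bars span the 9 alternatives and dotted lines mark 1 log2. In the left panel 7 members lie above 0 in every alternative, and in the right panel Klf10 alone keeps its sign, between -4.15 and -2.06.

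Ratios of one member to another within a library do not move with library scaling. The ratio of Klf2 to Klf4 was 2.32 in MigRI, 10.5 in the Klf4-transduced library, 2.48 in control and 3.62 in the cKO-labelled library. Klf2 therefore stood further above Klf4 in the cells given Klf4 than in the other 3 libraries. The ratio of Klf9 to Klf13 was 0.132, 2.03, 0.0793 and 0.0589 in the same order, so that Klf9 exceeded Klf13 in the Klf4-transduced library alone. The difference of Klf4 in the gain experiment minus the median of the other 8 measured members was -0.48 log2, and in the loss experiment it was -0.80 log2.

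The comparison of libraries in the loss experiment asked which transcripts differ in PD1+ cells of mice labelled as lacking Klf4. Klf10 was the member with the largest difference, and it was lower in the cKO-labelled library. Klf3, Klf6, Klf7 and Klf13 were at least 2-fold higher as deposited, 4 of 9 where 38.4% of all measured genes were called higher. On the relative scale 0 of 9 were, where 12.4% of all genes were. On both scales 1 of 9 was at least 2-fold lower, beside 6.92% of all genes as deposited and 16.2% on the relative scale. The members' median was 0.82 log2 as deposited, close to the 0.74 log2 of all measured genes.

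Klf10 was at 59.1 TPM in control against 10.4 TPM in the cKO-labelled library, so control held 5.67 times the level. The gene lies on chromosome 15 from 38291463 to 38300706 on the minus strand of mm10, and no other annotated gene overlaps it. The difference was -2.40 log2 as deposited and -3.13 log2 on the relative scale, and 117 of 12570 measured genes had a lower one. It stayed below -2 log2 in all 9 alternatives. The control value stood above those of both gain libraries too, at 14.7 and 18.7 TPM, and Klf10 ranked second in the family in control. The ratio of Klf6 to Klf10 was 1.11 in control and 18.6 in the cKO-labelled library, beside 10.7 in MigRI and 32.9 in the Klf4-transduced library. Its closest relative Klf11 was at 0.497 TPM in control against 1.53 TPM in the cKO-labelled library, 0.76 log2 as deposited and 0.02 log2 on the relative scale.

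TGF-beta is known to induce Klf10, and genes of its pathway were given beside it. Of 9 measured, 1 was at least 2-fold higher as deposited in the cKO-labelled library and 0 lower. On the relative scale 0 were higher and 1, Tgfbr1, was lower. Of all measured genes, 38.4% were called higher as deposited and 16.2% lower on the relative scale. The TGF-beta gene called higher was Smad2, which carries the receptor signal, at 1.07 and 3.21 TPM. Skil, a feedback inhibitor of the pathway, was at 3.65 and 7.84 TPM, and Tgfbr2, its ligand-binding receptor, at 5.22 and 11.1 TPM. Tgfbr1, the signalling receptor, was at 3.52 and 1.38 TPM, -0.93 log2 as deposited. Between MigRI and the Klf4-transduced library 3 of the 9 were higher as deposited, beside 43.7% of all measured genes. On the relative scale 2 were, beside 21.4%. Among them was Smad4, the shared signal carrier, at 2.35 and 13.8 TPM.

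Markers of other cells stood beside the Klf10 difference. Of 3 measured neutrophil markers, 2 were at least 2-fold lower in the cKO-labelled library as deposited, beside 6.92% of all measured genes. The 4 listed summed to 29.3 TPM in control against 3.44 TPM in the cKO-labelled library, with 1 at 0 in control (Cxcr2). In the gain experiment 3 of 3 were at least 2-fold higher with Klf4 as deposited, beside 43.7% of all measured genes. On the relative scale 1 of 3 was, beside 21.4%. The sums were 28.1 and 86.7 TPM. Klf10 differed there by 0.33 log2 as deposited and -0.47 log2 on the relative scale. In control and the cKO-labelled library Foxp3, the factor of regulatory T cells, was at 4.64 and 0.816 TPM, and Cd4 at 0.813 and 0.453 TPM. Their part in the Klf10 difference was not tested.

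**Figure D4:**
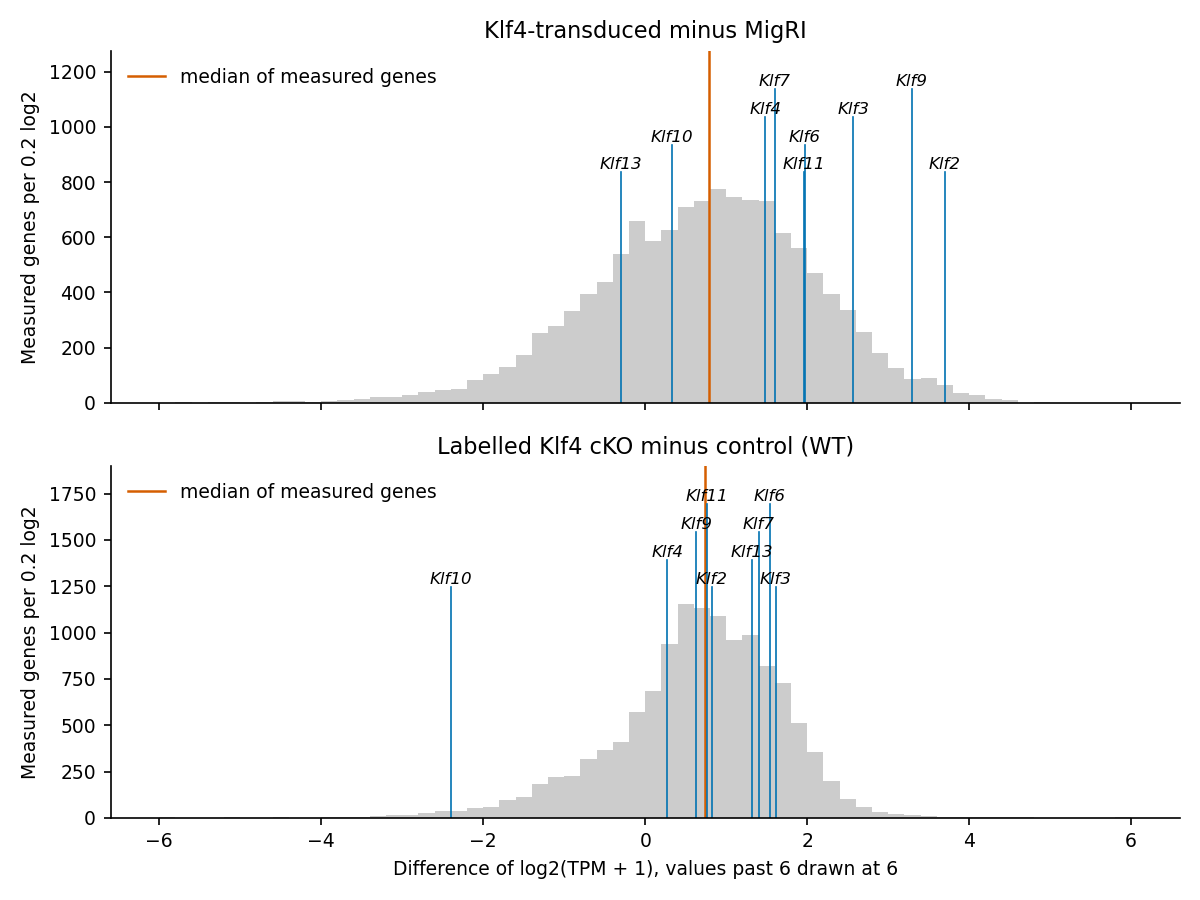
Number of measured genes (vertical axis, per 0.2 log2) by difference of log2(TPM + 1) as deposited in each experiment, with the 9 measured members marked by blue lines and the median of all measured genes by an orange line. Klf2 and Klf9 lie in the upper tail in the gain experiment and Klf10 in the lower tail in the loss experiment, where 117 genes lie below it.

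The other members were closer to the bulk of genes in the loss experiment. Klf3 was at 1.23 TPM in control against 5.78 TPM in the cKO-labelled library, 1.61 log2 as deposited and 0.87 log2 on the relative scale. Klf6 was at 65.8 and 194 TPM, with 1.54 and 0.80 log2. Klf7 and Klf13 followed at 1.40 and 1.32 log2 as deposited. Klf2 was at 18.7 and 33.6 TPM, 0.82 log2 as deposited and 0.08 log2 on the relative scale, and Klf9 at 1.51 and 2.88 TPM, 0.63 and -0.11 log2. For every member but Klf10 the sign differed in at least 1 of the 9 alternatives, since relative to Trac, Trbc1 and Trbc2, themselves 1.76 log2 higher in the cKO-labelled library, all of them were below 0.

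Most macrophage and fibroblast markers were higher in the same libraries as most Klf members. Of 9 measured macrophage markers, 9 were at least 2-fold higher in the Klf4-transduced library as deposited, and the 10 listed summed to 782 TPM in MigRI against 3902 TPM with Klf4. Of 7 measured fibroblast markers 7 were higher, with sums of 143 and 1385 TPM. Of all measured genes, 43.7% were called higher as deposited in that comparison and 38.4% in the loss experiment. The list medians were 2.42 log2 for macrophage and 3.19 log2 for fibroblast markers, and 1.86 and 1.54 log2 in the loss experiment. In the loss experiment 6 of 9 macrophage and 5 of 7 fibroblast markers were higher in the cKO-labelled library, with sums of 231 and 908 TPM and of 27.4 and 249.9 TPM. No macrophage or fibroblast marker was at 0 in any library. Not every list went this way in the loss experiment. Neutrophil markers summed to 29.3 TPM in control against 3.44 TPM in the cKO-labelled library. The 4 dendritic cell markers summed to 9.82 and 6.31 TPM there, and to 0.754 TPM in MigRI against 1.45 TPM with Klf4. T cell markers too were higher in the cKO-labelled library, 8 of 10 of them at least 2-fold as deposited.

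Endothelial cells are known for high Klf2 and Klf4. The 7 endothelial markers summed to 17.0 TPM in MigRI, 25.5 TPM with Klf4, 3.20 TPM in control and 13.2 TPM with the cKO label. Most of the sum was Egfl7, at 15.4, 23.3, 1.44 and 9.94 TPM. Cdh5, Kdr, Tie1, Tek and Vwf were under 1 TPM in every library, with 3 markers at 0 in MigRI (Tie1, Tek and Vwf), 1 in the Klf4-transduced library (Tek) and 5 in control. The 4 mast cell proteases and the receptor Kit summed to 1.91, 74.0, 0.278 and 62.7 TPM, with Mcpt4 and Tpsb2 at 0 in MigRI and all but Kit at 0 in control. The 3 B cell markers summed to 6.80, 23.7, 2.26 and 6.34 TPM, with Ms4a1 at 0 in every library, and the 4 epithelial markers summed to at most 3.03 TPM. What these cells contribute to the Klf levels was not tested.

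Upstream of Klf2 and Klf4 stand the MEK5-ERK5-MEF2 pathway, the histone deacetylases that restrain MEF2, and FoxO factors. Of these genes, 7 of 11 were at least 2-fold higher in the Klf4-transduced library and 0 lower as deposited. On the relative scale 4 of 11 were higher. The shares of all measured genes called higher were 43.7% and 21.4%, and 38.4% and 12.4% in the loss experiment. Mapk7, which encodes ERK5, was at 1.04 TPM in MigRI against 10.9 TPM with Klf4, Map2k5, which encodes MEK5, at 1.71 and 13.7 TPM, and Mef2c at 1.11 and 6.88 TPM. For the cKO-labelled library 2 of the 11 were higher as deposited. They were Mef2d, at 4.06 and 9.99 TPM, and Foxo1, a known inducer of Klf2 in T cells, at 3.76 and 8.68 TPM. On the relative scale 0 were higher and 1, Map3k2, was lower. The shares of all measured genes called lower were 10.3% and 23.6%, and 6.92% and 16.2% in the loss experiment.

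On the deposited and relative scales, genes of the Klf2 trafficking programme did not follow Klf2 as a group in the gain experiment. Of 5 measured, 2 were called higher and 2 lower as deposited in the Klf4-transduced library, with 0 higher and 2 lower on the relative scale. Of all measured genes, 43.7% were higher and 10.3% lower as deposited, and 21.4% and 23.6% on the relative scale. S1pr1, the receptor for exit from tissue, was at 0.497 and 3.16 TPM, and Itgb7, an integrin chain for homing to the gut, at 6.79 and 19.2 TPM. Il7r, a receptor of resting and memory cells, was at 21.5 and 3.57 TPM and Ccr7, a chemokine receptor for lymph nodes, at 286 and 125 TPM. The value of Ccr7 in this comparison was chosen after it was seen. The receptor genes Trac, Trbc1 and Trbc2 were themselves -2.02 log2 there. Beside them Il7r, at -2.30 log2 as deposited, was lower. S1pr1, Itgb7, S1pr4 and Ccr7, at 1.47, 1.37, -0.08 and -1.19 log2, were higher than these receptor genes. Between control and the cKO-labelled library Ccr7 was at 21.7 and 121 TPM, the 1 gene of 5 that was at least 2-fold higher as deposited, and 0 were lower. On the relative scale 1 was higher and 2 were lower. The shares of all measured genes in the loss experiment were 38.4% higher and 6.92% lower as deposited. They were 12.4% and 16.2% on the relative scale.

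Several Klf genes, among them Klf2, Klf4, Klf6 and Klf10, are known as immediate early genes. Of 13 measured immediate early genes on the list, 11 were at least 2-fold higher in the Klf4-transduced library as deposited. On the relative scale 8 were, with 0 lower on either scale. The shares of all measured genes called higher were 43.7% and 21.4%, and 38.4% and 12.4% in the loss experiment. Egr1 was at 18.5 and 373 TPM, Zfp36 at 65.1 and 1121 TPM and Jun at 84.5 and 1381 TPM. For the cKO-labelled library 8 of 13 were higher as deposited, and 2 were higher and 1 lower on the relative scale. The shares of all measured genes called lower were 10.3% and 23.6%, and 6.92% and 16.2% in the loss experiment. Zfp36 was at 36.6 and 184 TPM, 2.30 log2 as deposited, whereas Klf10 was -2.40 log2.

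The list of glucocorticoid-responsive genes, the class to which Klf9 belongs, held 5 measured genes. Of these, 3 were at least 2-fold higher in the Klf4-transduced library as deposited and 2 on the relative scale. The shares of all measured genes called higher were 43.7% and 21.4%, and 38.4% and 12.4% in the loss experiment. Sgk1, a kinase, was at 13.8 and 339 TPM and Tsc22d3, which encodes GILZ, at 37.8 and 173 TPM. Between control and the cKO-labelled library Sgk1 was at 6.22 and 22.2 TPM, and 2 of 5 were higher as deposited. On the relative scale 0 were higher and 2 lower, where 16.2% of all measured genes were lower. Nr3c1, the glucocorticoid receptor, was at 7.05, 6.26, 7.78 and 10.8 TPM in MigRI, Klf4-transduced, control and cKO-labelled libraries.

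Among partner proteins, 6 of 11 corepressors and coactivators were at least 2-fold higher with Klf4 as deposited, beside 43.7% of all measured genes. On the relative scale 2 of 11 were, beside 21.4% of all measured genes. These 2 were the CtBP genes: Ctbp2 was at 0.610 and 11.04 TPM and Ctbp1 at 10 and 39.8 TPM. Their differences in the loss experiment were 0.28 and 0.22 log2 as deposited, whereas Sin3b, a scaffold of corepressor complexes, was at 104 and 467 TPM, 2.16 log2, and 5 of 11 genes of the list were higher as deposited and 3 on the relative scale. Of 7 ubiquitin ligases that act on Klf proteins, 4 were higher with Klf4 and 1 in the cKO-labelled library as deposited, and 2 and 0 on the relative scale, where 1 was lower in each comparison. Smurf1 was the highest of them in difference, at 1.36 and 23.0 TPM in the gain experiment. In the loss experiment the shares of all measured genes called higher were 38.4% as deposited and 12.4% on the relative scale. The shares called lower on the relative scale were 23.6% in the gain and 16.2% in the loss experiment.

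Of 9 measured quiescence genes, 4 were called higher and 0 lower with Klf4 as deposited. On the relative scale 3 were higher and 1 lower. The shares of all measured genes called higher were 43.7% and 21.4%, and 38.4% and 12.4% in the loss experiment. Txnip, an inhibitor of glucose uptake, was at 2.48 and 19.0 TPM, and Tob1, an antiproliferative gene of resting T cells, at 1.91 and 11.04 TPM. For the cKO-labelled library 2 were higher and 1 lower as deposited, the lower one being Slfn2, at 424 and 205 TPM. On the relative scale 0 were higher and 1 lower. The shares of all measured genes called lower were 10.3% and 23.6%, and 6.92% and 16.2% in the loss experiment.

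Of 9 measured cell cycle genes that Klf4 is known to control, 5 were at least 2-fold higher and 0 lower as deposited in each comparison. Of all measured genes, 43.7% were called higher in the gain experiment and 38.4% in the loss experiment. The shares called lower were 10.3% and 6.92%. On the relative scale 1 was higher with Klf4 and 2 in the cKO-labelled library, with 1 lower in each. The shares of all measured genes on that scale were 21.4% and 12.4% higher, and 23.6% and 16.2% lower. Trp53, which encodes p53, was at 48.2 and 156 TPM in the gain experiment and at 11.7 and 63.6 TPM in the loss experiment, 1.67 and 2.34 log2 as deposited. Ccnb1, the mitotic cyclin B1, was at 33.5 and 95.6 TPM and at 4.28 and 20.4 TPM, 1.49 and 2.02 log2. Cdkn1a, the inhibitor p21 that Klf4 activates, was at 459 TPM in MigRI, 384 TPM with Klf4, 384 TPM in control and 373 TPM with the cKO label. Cdkn1b, the inhibitor p27, was at 3.91, 3.29, 12.0 and 8.35 TPM. Ccnd1, cyclin D1, which Klf4 is known to repress, was at 17.6 TPM in MigRI against 102 TPM with Klf4. Cdkn1a and Cdkn1b were chosen after their values were seen.

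List medians as deposited can be set beside the medians of all measured genes, 0.79 log2 in the gain and 0.74 log2 in the loss experiment. Ubiquitin ligases had medians of 1.61 and 0.81 log2, the upstream pathway 1.5 and 0.40 log2, and glucocorticoid-responsive genes 1.48 and 0.43 log2. Cell cycle genes had 1.18 and 1.21 log2, corepressors and coactivators 1.13 and 0.63 log2, and other Klf and Sp genes 0.98 and 0.37 log2. Quiescence genes had 0.92 and 0.54 log2, TGF-beta genes 0.71 and 0.76 log2, and trafficking genes -0.08 and -0.05 log2. Among these 10 pathway lists, immediate early genes had the highest median in both comparisons, 2.28 and 1.41 log2.

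**Figure D5:**
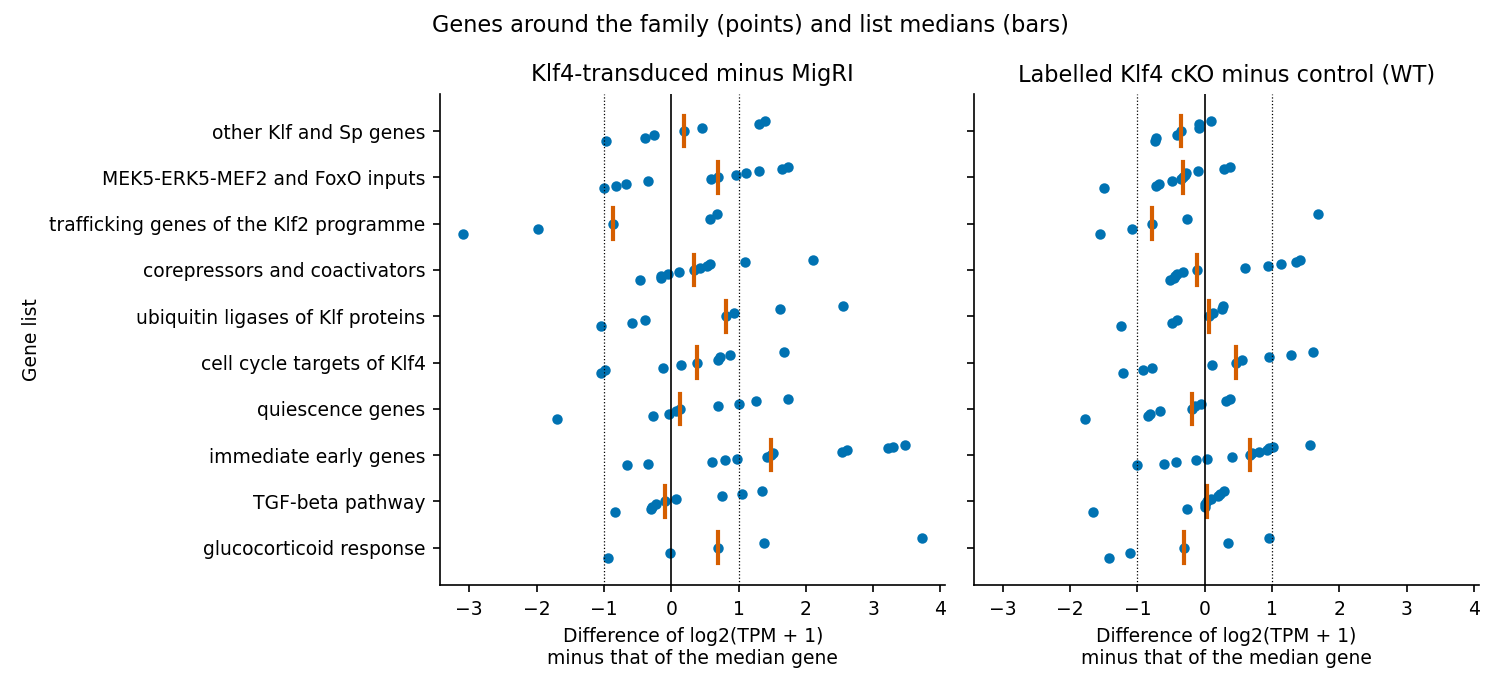
Difference of log2(TPM + 1) minus that of the median gene (horizontal axis) for each measured gene of the 10 lists (points), with the median of each list as an orange bar and dotted lines at 1 log2, in the gain experiment (left) and the loss experiment (right). The immediate early genes have a median of 1.48 in the left panel and 0.67 in the right one.

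Of the 16 other Klf and Sp genes on the list, 7 were measured. Klf5, an epithelial member, was at 0.604 TPM in MigRI against 5.85 TPM with Klf4 and listed at 0 in both libraries of the loss experiment. Klf1, the erythroid member, was listed at 0 in MigRI and control, at 3.57 TPM with Klf4 and at 0.780 TPM in the cKO-labelled library. Klf16 was at 0.894, 3.50, 0.938 and 0.967 TPM. Sp1 and Sp3, ubiquitous relatives that bind the GC box, were at 1.37 and 2.12 TPM and at 3.78 and 5.99 TPM in MigRI and with Klf4, and at 0.871 and 1.94 TPM and at 3.71 and 6.45 TPM in control and in the cKO-labelled library.

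The genes whose profile was most like that of a member were found by Euclidean distance between profiles of log2(TPM + 1) over the 4 libraries. Each profile was centred on its mean. The search covered 6621 other genes averaging 5 TPM or more, with predicted genes, small RNAs, receptor segments and ribosomal protein genes left out. For Klf4 they were Glyr1, Prr3 and Camkmt, at distances of 0.058, 0.094 and 0.110 log2, and 237 genes lay within 0.5. For Klf2 they were Phc2, Emp1 and Tgm2, at 0.151, 0.153 and 0.189 log2, with 73 genes within 0.5. For Klf6 they were Adipor1, Ubl7 and Fam53a, at 0.042, 0.072 and 0.098 log2, with 504 genes within 0.5. Emp1 was at 4.91, 71.0, 4.38 and 9.50 TPM in MigRI, Klf4-transduced, control and cKO-labelled libraries. The profile of Klf4 over 4 libraries was thus shared by many genes, and that of Klf2 by fewer.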

How the data were processed

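The authors deposited gene-level TPM values, 1 table per library, per the file headers. The submitters' processing notes name mm10 as the build and HISAT2, StringTie, Trimmomatic and edgeR as tools; for roles, versions and annotation, nothing is given in the sources used here. Per the labels' protocols, a SMART-seq v4 kit was used. Date-like gene names in the control table (26) were mapped back by name (22) or left out (4). Differences were computed within each experiment as log2(TPM + 1) with Python 3.11.15 and pandas 2.3.3, with a filter of a mean of at least 1 TPM, and understate changes of low genes. No test was possible with 1 library per group, and depth is unknown. The calculation was tested on simulated data with known changes and little noise, which checks the code and not the calls made here. Coordinates and transcript lengths came from GENCODE M21 (GRCm38), promoters from RefSeq. Named genes were all members, up to 4 genes per list with the largest difference in a comparison, the 3 nearest profiles for Klf4, Klf2 and Klf6, and genes said to be chosen otherwise. The members and lists were chosen with earlier results of these data known. Of the list genes, 2 were left out of the lists and their counts and are not reported here. Alternatives were pseudocounts of 0.1 and 5, filters of none, 5 and 10 TPM, and 6 scalings, 1 of which (coding genes of at least 1000 nucleotides) was added after seeing the data; relative values count as another alternative.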

Additional observations from a re-analysis of the deposited data

How the results depend on the processing

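In the gain experiment the number of members at least 2-fold higher went from 7 to 4 under median of ratios scaling and to 4 under quantile normalization, and to 9 relative to Trac, Trbc1 and Trbc2, which were -2.02 log2 in that comparison. The number at least 2-fold lower went from 0 to 1 relative to the median gene, under median of ratios scaling and under quantile normalization. In the loss experiment the number higher went from 4 to 0 relative to the median gene, to 0 under median of ratios scaling, to 1 under quantile normalization and to 0 relative to Trac, Trbc1 and Trbc2. The number lower went from 1 to 4 relative to those receptor genes. Relative to the median gene, 23.6% of all measured genes were called lower in the gain experiment and 12.4% higher in the loss experiment. Such shares were not calculated for median of ratios scaling, quantile normalization or the receptor genes, so the member counts there have no background. The receptor reference raises every gene in the gain experiment and lowers every gene in the loss experiment, members or not. Relative to the receptor genes, Klf3 turned to -0.15, Klf6 to -0.22, Klf7 to -0.36 and Klf13 to -0.44 log2. These receptor genes were 1.76 log2 higher in the library labelled Klf4 cKO; the cause was not tested for the other settings. Of 9 members, 7 kept their sign in all 9 alternatives in the gain experiment and 1, Klf10, in the loss experiment. The median gene itself depended on the filter: at a mean of at least 5 and 10 TPM it was 0.77 and 0.65 log2 in the gain experiment and 1.05 and 1.19 log2 in the loss experiment, and without a filter it was 0.00 in both. No paired analysis was possible because each group held 1 library, and for the same reason no replicate could be left out.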
